A study of Macrostomum lignano with 16 samples.

Results

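Flatworms that had lived in groups of 8 were compared with worms that had lived with 1 constant partner, so that group size differed while every worm had company. The comparison takes the 4 octet and 4 paired libraries, 8 of the 16 libraries of the series, and covers all transcripts of the deposited table. Of its 76437 transcripts, 40265 held enough reads to be tested, and 3676 had 0 reads in all 8 libraries. The table gives transcripts by assembly identifier and does not pair them with gene names, so no transcript is given a function here and the labelled whole-body material was not checked against marker genes.

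Macrostomum lignano is a small free-living marine flatworm and a simultaneous hermaphrodite, in which each adult carries testes and ovaries and mates often and reciprocally. In larger groups the sperm of more partners compete inside each recipient, and worms of this species are known to adjust the size of their testes to the number of worms they live with. Group size is therefore the setting in which sex allocation, the division of resources between sperm and eggs, is usually studied in this animal. In RNA from whole worms, a change in the amount of a tissue and a change in expression per cell cannot be told apart.

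All worms were adults of strain DV1, 66 to 69 days old, fed diatoms, and held for 64 days in their social setting. Octet worms lived in groups of 8 and paired worms in groups of 2. The remaining libraries came from isolated worms, always alone, and from joined worms, given a partner only in the final 24 h. They entered the comparison only through the shared estimate of the spread and as levels to set beside it. Each library holds RNA pooled from several worms, and neither the number of worms per pool nor the number of vessels behind a pool is stated in the sources used here, so p-values measure the spread between these 4 pools a group.

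The 8 libraries held 7392705 to 10112373 reads. Paired replicate 4 and octet replicate 3 stood apart from their own groups. The median absolute log2 difference of a library from the mean of its 3 fellow pools was 0.42 in paired replicate 4 and 0.33 in octet replicate 3. It was 0.20, 0.32 and 0.23 in paired replicates 1, 2 and 3, and 0.25, 0.24 and 0.29 in octet replicates 1, 2 and 4. A principal component analysis of the 8 libraries used log2 CPM, that is, read counts brought to the same library size. On its first axis, with 37.7% of the variance, octet replicates 1, 2 and 4 scored -38.8, -38.5 and -88.1 and paired replicates 1, 2 and 3 scored 55.3, 90.0 and 35.0. Octet replicate 3 lay on the paired side at 20.8 and paired replicate 4 on the octet side at -35.8. Results are given with and without these pools below.

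Between octet and paired worms 580 transcripts were called, 1.44% of those tested (limma-voom, Benjamini-Hochberg adjusted p under 0.05). Octet worms had more of 416 of them (1.03%) and less of 164 (0.407%). Most of the rises were smaller than 2-fold, and the falls were larger by median. The median log2 fold change was 0.77 among the higher and -1.01 among the lower transcripts. Differences above 1.5-fold made up 365 of the higher and 154 of the lower transcripts, and differences above 2-fold 94 and 85. An unadjusted p under 0.05 was found in 8032 transcripts (19.9%), 4456 of them higher and 3576 lower. Without any model, the 4 octet libraries all lay above the 4 paired libraries in 1632 transcripts (4.05%) and all below them in 1454 (3.61%), 7.66% together. Such a separation held for 306 of the 416 and for 137 of the 164 called transcripts, and the pools overlapped in the other 137.

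**Figure D1:**
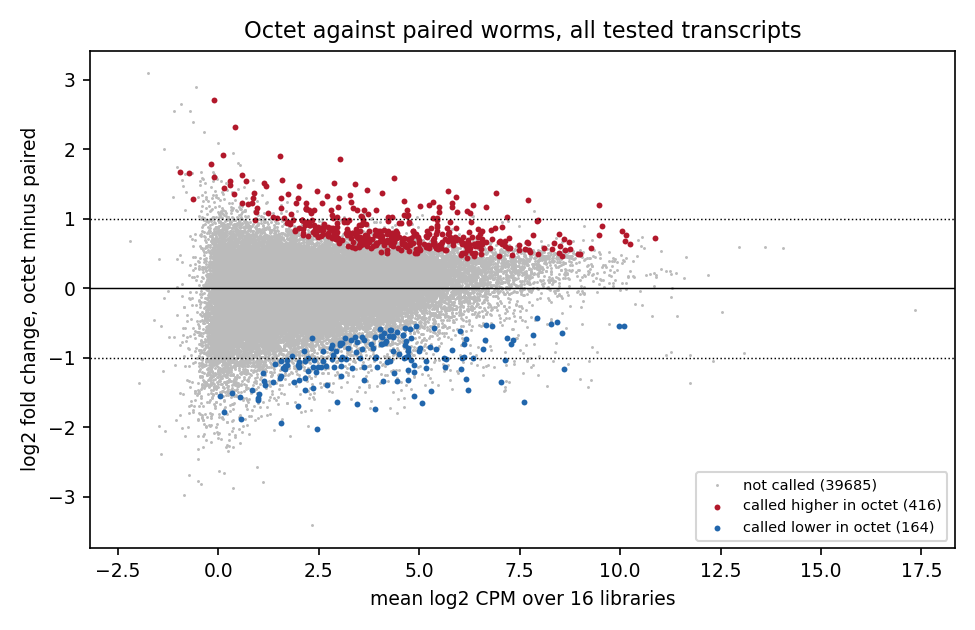
Log2 fold change between octet and paired worms (y axis) against mean log2 CPM over the 16 libraries (x axis) for every tested transcript, 1 point each, with dotted lines at 2-fold. The 416 called higher transcripts and the 164 called lower ones sit at the edges of a cloud centred near 0, and few lie among scarce transcripts.

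The scaling placed the middle of the table near 0. The median log2 fold change over all tested transcripts was 0.0024, with quartiles of -0.29 and 0.26, and 50.2% of transcripts were higher on average in octet worms. The tails were unequal, with the 1st percentile at -1.33 and the 99th at 0.91. With the transcripts split by abundance into 3 classes of nearly equal size, the most abundant class lay above a mean log2 CPM of 3.05. In it 306 were called higher and 107 lower, 3.08% of 13421. In the middle class 85 were higher and 45 lower, 0.969% of 13422. In the least abundant class, below a mean log2 CPM of 1.34, 25 were higher and 12 lower, 0.276% of 13422. The libraries did not overlap in 842 higher against 450 lower transcripts of the most abundant class and in 293 higher against 493 lower transcripts of the least abundant class. The median log2 fold change ran from -0.10 in the least abundant class to 0.10 in the most abundant one. Called rises outnumbered called falls in every class, while transcripts with fully separated pools were more often higher than lower in the most abundant class and more often lower in the least abundant.

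The precision differed in the same way. The half-width of the 95% interval of a fold change had a median of 0.34 log2 units in the most abundant class and 0.76 in the least abundant. Over all transcripts this median was 0.51, and in 27815 transcripts (69.1%) the whole interval lay within 2-fold in either direction. Of the 39685 transcripts that were not called, 27668 had such an interval, and for the other 12017 the interval reached 2-fold or beyond. An interval within 1.5-fold was reached by 9582 transcripts (23.8%). At the other end, the interval lay wholly beyond 2-fold in 21 transcripts, 13 higher and 8 lower in octet worms, of which 14 were called.

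By a rule that takes the smallest p values among called transcripts whose mean log2 CPM reached 3 and whose pools were fully separated, 2 rises and 2 falls are given in full. RNA815_30220 had the smallest p of all transcripts. It stood at 97.5, 72.6, 59.3 and 86.6 CPM in octet replicates 1 to 4 and at 34.8, 27.6, 33.8 and 43.3 CPM in paired replicates 1 to 4. The lowest octet pool therefore lay above the highest paired pool, and the means were 79.0 ± 16.6 and 34.9 ± 6.47 CPM (SD, n = 4 each). The log2 fold change was 1.18 ± 0.15 (SE; limma adjusted p = 0.0019), a 2.26-fold difference. In isolated worms this transcript stood at 20.3 to 25.4 CPM and in joined worms at 16.4 to 20.4 CPM, below every paired pool. Paired against isolated worms, its difference did not pass (limma adjusted p = 0.0599).

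RNA815_30887.2 stood at 44.5, 55.1, 55.6 and 73.9 CPM in octet replicates 1 to 4 and at 16.4, 12.5, 20.8 and 30.7 CPM in paired replicates 1 to 4. Paired replicate 4 was the highest of the paired pools but stayed below the lowest octet pool. The log2 fold change was 1.58 ± 0.21 (SE; limma adjusted p = 0.0019), a 2.99-fold difference. The isolated pools, at 11.6 to 17.5 CPM, and the joined pools, at 9.05 to 15.1 CPM, overlapped with the paired ones. Paired against isolated worms, its difference did not pass (limma adjusted p = 0.493). A second transcript that shares its number, RNA815_30887.1, rose as well. Its mean was 8.98 ± 4.49 CPM in the paired pools and 16.8 ± 3.99 CPM in the octet pools (SD, n = 4 each), a log2 difference of 1.01 ± 0.25 (SE; limma adjusted p = 0.0468). Reads of similar transcripts were divided by estimation, so the split between these transcripts is less certain than their sum.

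RNA815_358.1 was lower in octet worms. It stood at 15.4, 17.6, 19.1 and 20.2 CPM in octet replicates 1 to 4 and at 43.9, 38.1, 30.1 and 37.5 CPM in paired replicates 1 to 4. The groups were far apart compared with the spread of the octet pools, with means of 18.1 ± 2.06 and 37.4 ± 5.64 CPM (SD, n = 4 each). The log2 fold change was -1.04 ± 0.14 (SE; limma adjusted p = 0.0019). Joined pools, at 49.5 to 59.8 CPM, lay above every paired pool. Isolated pools, at 42.1 to 49.3 CPM, had a higher mean than the paired ones but overlapped with them. The difference between paired and isolated worms did not pass (limma adjusted p = 0.268). The other 4 transcripts with its number were scarce, at no more than 2.82 CPM in paired worms, and did not pass the test, with log2 differences of -0.70 to -0.16.

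RNA815_356.1 showed a wider fall. It stood at 27.4, 28.7, 26.0 and 21.3 CPM in octet replicates 1 to 4 and at 79.3, 83.6, 52.0 and 73.7 CPM in paired replicates 1 to 4. The octet pools lay within a narrow band and every paired pool was well above it. The log2 fold change was -1.46 ± 0.21 (SE; limma adjusted p = 0.0034), a 2.76-fold difference. Isolated pools held 70.1 to 141 CPM and joined pools 110 to 186 CPM, so that the octet pools were the lowest of all 16 libraries. Paired against isolated worms, its difference did not pass (limma adjusted p = 0.108). The other 2 tested transcripts with its number stood below 2 CPM in both groups and did not pass, with log2 differences of -1.98 and -1.12.

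**Figure D2:**
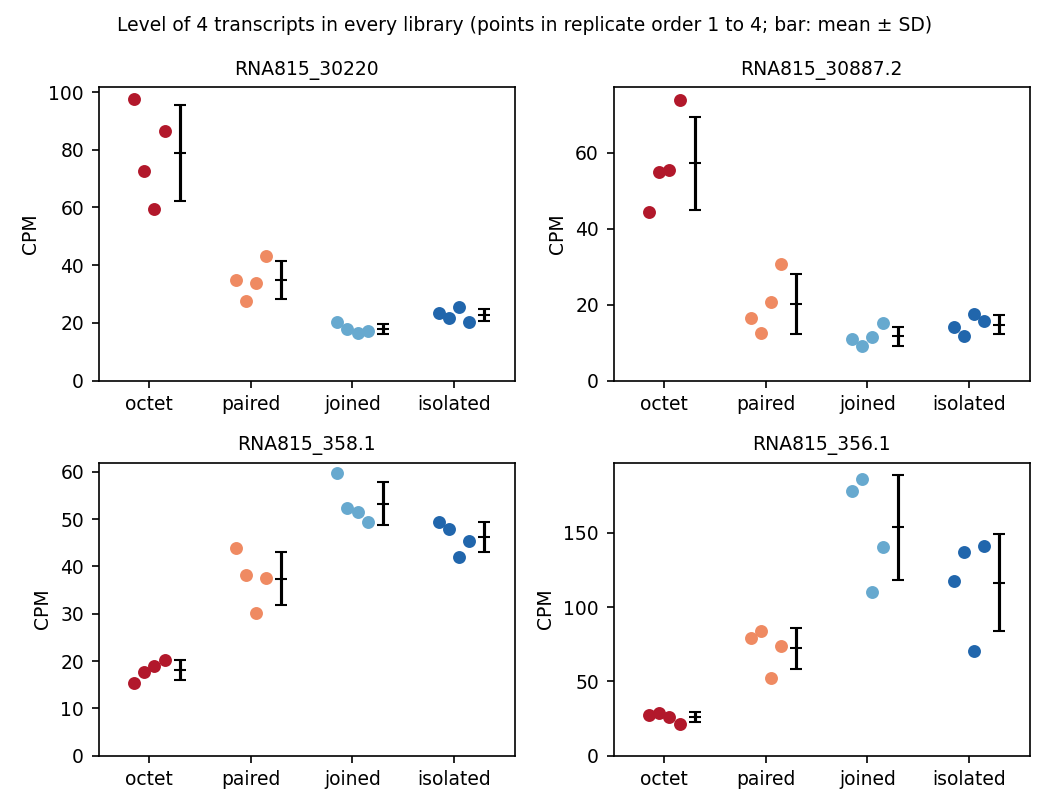
Level in CPM (y axis) of the 4 transcripts in the 4 pools of each group (x axis; points are libraries in replicate order 1 to 4, bars are mean ± SD). In each panel the octet pools are separated from the paired pools, which was a condition for choosing these transcripts. The paired means lie between the octet means and those of isolated and joined worms.

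Identifiers with a dot suffix mark transcripts of 1 number. Transcripts that share a number with another tested one were called in 2.03% of cases (192 of 9468), against 1.26% of the 30797 that stood alone. The 192 belonged to 150 numbers, and 36 numbers held at least 2 called transcripts. No number held transcripts called in opposite directions (limma-voom). At an unadjusted p under 0.05, 15 of the 1486 numbers with such transcripts did so. A number with only 1 such transcript cannot hold both directions, and numbers with at least 2 were not counted apart. When the reads of all transcripts of a number were summed, 656 of 35246 numbers were called (1.86%), 457 higher and 199 lower, and 496 of the 656 held a transcript called on its own.

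The count of calls depended on single pools. Without paired replicate 4 it was 3998, and without octet replicate 3 it was 2425. Leaving out octet replicate 1, 2 or 4 gave 23, 256 and 51 calls, and leaving out paired replicate 1, 2 or 3 gave 40, 51 and 235. Pools of the other groups counted too, through the shared spread, with 1075 without isolated replicate 3, 270, 348 and 346 without isolated replicates 1, 2 and 4, and 303, 377 and 371 without joined replicates 1, 2 and 3. A fit to the 8 octet and paired libraries alone called 8 transcripts, 2 higher and 6 lower, of which 7 were among the 580. RNA815_30887.2, RNA815_358.1 and RNA815_356.1 belonged to these 8, and RNA815_30220 had an adjusted p of 0.0511 there (limma).

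Fold changes of the 580 called transcripts kept their sign, wherever they were tested, in all 16 fits with 1 library left out. Each of these fits still holds most or all of the octet and paired pools that made the call. The fit to 8 libraries tested 579 of the 580. Each kept its sign and had an unadjusted p under 0.05 there (limma), where 6348 of 35786 tested transcripts did. The 580 were called on these same octet and paired pools, so neither result is independent support. The fit to 8 libraries had a median standard error of 0.23 over its 35786 tested transcripts, against 0.25 over the 40265 tested with all 16. These sets differ, so the medians do not compare the error of the same transcripts. The fit to 8 had 6 residual and 8.24 prior degrees of freedom in place of 12 and 10.3. The spread between pools was 0.31 in octet, 0.33 in paired, 0.30 in isolated and 0.28 in joined worms (median SD of log2 CPM over all tested transcripts). Among transcripts called higher it was 0.26 and 0.28 in octet and paired worms and 0.21 and 0.20 in isolated and joined worms. Among transcripts called lower it was 0.34 and 0.28 in octet and paired worms and 0.25 and 0.20 in isolated and joined worms.

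**Figure D3:**
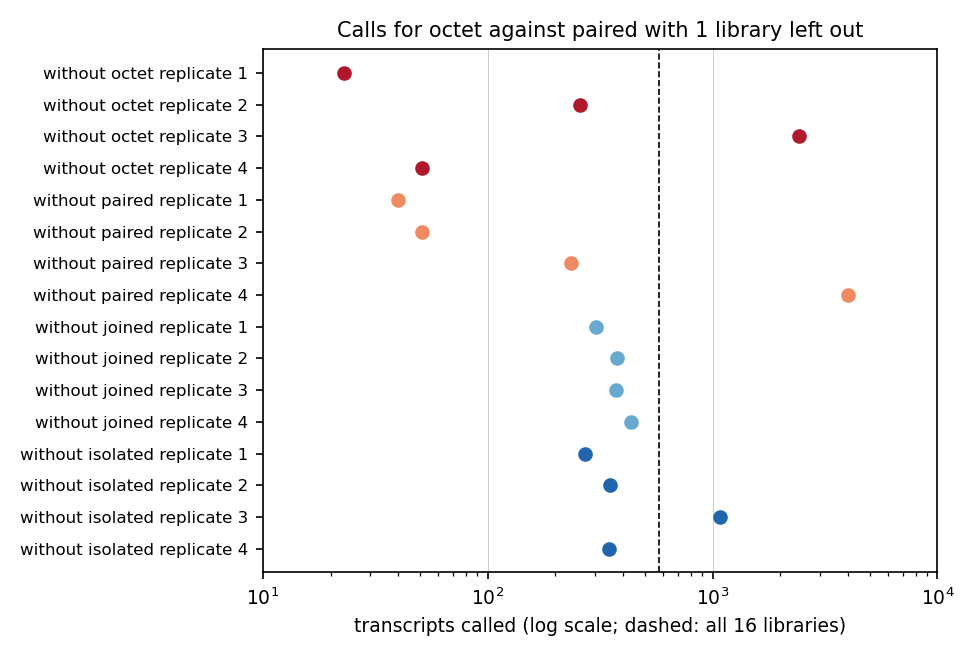
Number of transcripts called between octet and paired worms (x axis, log scale) when the library named on the y axis is left out, with a dashed line at the 580 calls of all 16 libraries. Counts run from 23 to 3998, and 3 libraries raise the count when left out.

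A set of 21 transcripts, 15 higher and 6 lower in octet worms, was called whichever of the 8 libraries was left out, and also whichever of the 16. It holds the 4 transcripts described above and was picked out after its values were seen. All these fits kept the spread shared with isolated and joined pools. In the fit to the 8 octet and paired libraries alone, 4 of the 21 were called. The higher ones differed by 1.79-fold to 3.75-fold, with a median of 2.23-fold and mean levels of 3.44 to 70.6 CPM. The lower ones differed by 1.84-fold to 2.76-fold, with a median of 2.01-fold and mean levels of 33.6 to 154 CPM. Octet and paired pools were fully separated in each of the 21, against 443 of the 580 called and 7.66% of all tested transcripts. The 21 were chosen by calls on these same pools, which makes such a separation likely. Of the 580, 308 kept their call in at most 2 of the 8 fits with an octet or paired library left out.

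Transcripts called without a given pool show where that pool lies on values that did not choose them. On a scale from 0, the mean of the other 3 pools of its group, to 1, the mean of the opposite group, paired replicate 4 had a median position of 0.84 in the 2374 transcripts called higher without it and 0.80 in the 1624 called lower. Octet replicate 3 had median positions of 0.63 in 1662 higher and 0.67 in 763 lower transcripts. Both pools thus lay nearer to the opposite group than to their own in these transcripts. Octet replicate 2 stood at 0.42 in 207 higher and 0.25 in 49 lower transcripts, and paired replicate 3 at 0.22 in 135 higher and 0.41 in 100 lower ones. Octet replicates 1 and 4 and paired replicates 1 and 2 stood at -0.15 to 0.23, in sets of 7 to 42 transcripts. Some shift toward the opposite group is built in, because the remaining pools were the ones that made the call.

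The called transcripts were then followed into isolated and joined worms, relative to the mean of the paired libraries. The median of the 416 higher transcripts lay at 0.55 to 0.96 log2 units in the octet pools, at -0.24 to 0.26 in the paired pools, at -0.44 to -0.29 in the isolated pools and at -0.67 to -0.47 in the joined pools. Paired replicate 4 was the highest paired pool at 0.26 and octet replicate 3 the lowest octet pool at 0.55. The median of the 164 lower transcripts lay at -1.25 to -0.65 in the octet pools, at -0.23 to 0.25 in the paired pools, at -0.23 to 0.31 in the isolated pools and at 0.29 to 0.47 in the joined pools. Isolated replicate 3, at -0.23, lay apart from the other isolated pools, which stood at 0.12 to 0.31. The octet and paired values chose these transcripts and only describe them.

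**Figure D4:**
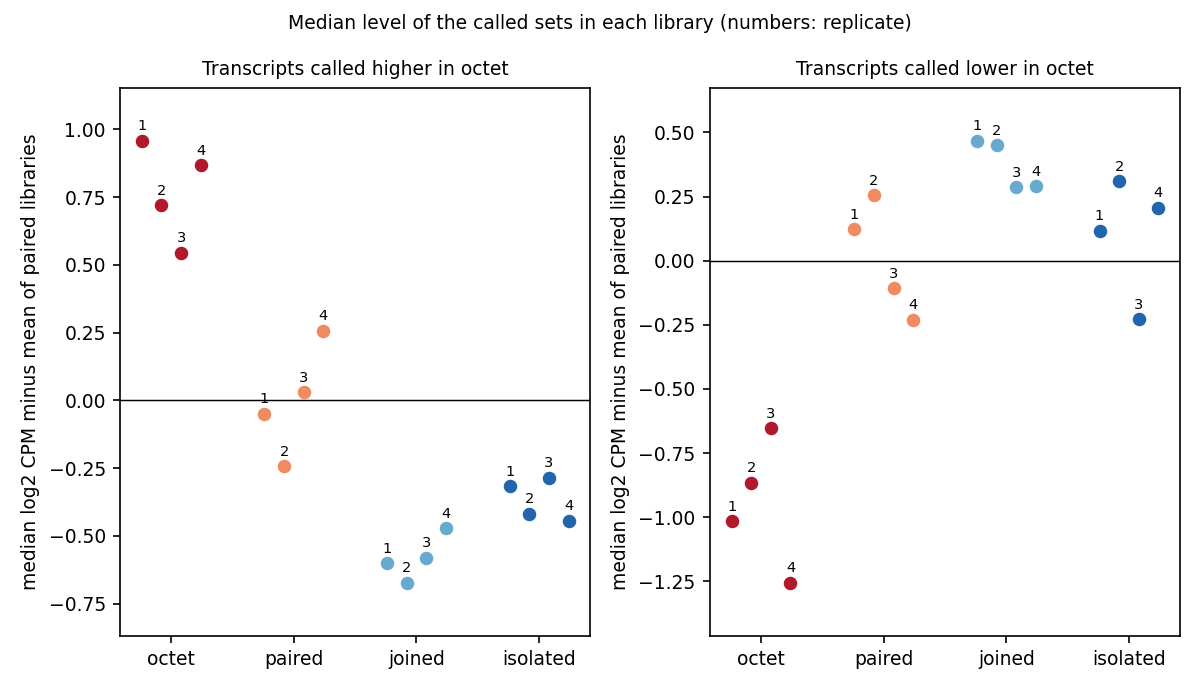
Median log2 CPM of the transcripts called higher (left) and lower (right) in octet worms, relative to the mean of the paired libraries (y axis), in each library of the 4 groups (x axis; numbers give the replicate). The octet pools lie apart from all others in both panels, at 0.55 to 0.96 and at -1.25 to -0.65, with paired replicate 4 and octet replicate 3 closest to each other in the left panel.

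Summed over the 416 higher transcripts, the level was 54323 ± 7114 CPM in octet, 32339 ± 5104 CPM in paired, 19238 ± 805 CPM in joined and 24096 ± 1977 CPM in isolated worms (SD, n = 4 each). Summed over the 164 lower transcripts, it was 4434 ± 594 CPM in octet, 7685 ± 1080 CPM in paired, 12258 ± 538 CPM in joined and 10604 ± 287 CPM in isolated worms. The isolated mean lay below both the octet and the paired mean in 84.9% of the higher transcripts, against 54.4% of all tested transcripts that were higher on average in octet worms. In the lower transcripts it lay above both in 59.8%, against 58.3% of all tested transcripts that were lower on average. Side by side, the median log2 fold change of the higher transcripts was 0.77 for octet against paired, 1.16 for octet against isolated and 0.36 for paired against isolated worms. For the lower transcripts these medians were -1.01, -1.08 and -0.08. These comparisons share the octet or the paired libraries, so they are not independent of each other.

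Joined and isolated worms share no library with the comparison of octet with paired worms, although both differences come from 1 scaling of 1 table. Between joined and isolated worms limma-voom called no transcript (2371 at an unadjusted p under 0.05, 5.89%). Across the 40265 transcripts, the difference in mean log2 CPM between joined and isolated worms ran against that between octet and paired worms, with a Pearson correlation of -0.36. With 1 library left out it lay between -0.41 and -0.20, the latter without isolated replicate 3. It was -0.24 in the least abundant, -0.40 in the middle and -0.57 in the most abundant class. The joined mean exceeded the isolated mean in 148 of the 164 transcripts called lower in octet worms (90.2%) and in 91 of the 416 called higher (21.9%), against 50.6% of all tested transcripts. Among all tested transcripts of the same direction on average, called or not, these shares were 66.5% and 34.7%. With 1 joined or isolated library left out, the counts of 148 and 91 became 142 to 153 and 69 to 103. The called sets were kept fixed, so leaving out an octet or paired library could not change these counts. The sizes were small, with median log2 differences of 0.26 and -0.22. An unadjusted p under 0.05 for a lower level in joined worms was found in 93 of the 416, and for a higher level in 1, against 1170 lower and 1201 higher among all tested transcripts and 974 lower and 262 higher among the 20220 that were higher on average in octet worms. Transcripts are not independent replicates, and the cause of this opposite pattern was not tested.

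**Figure D5:**
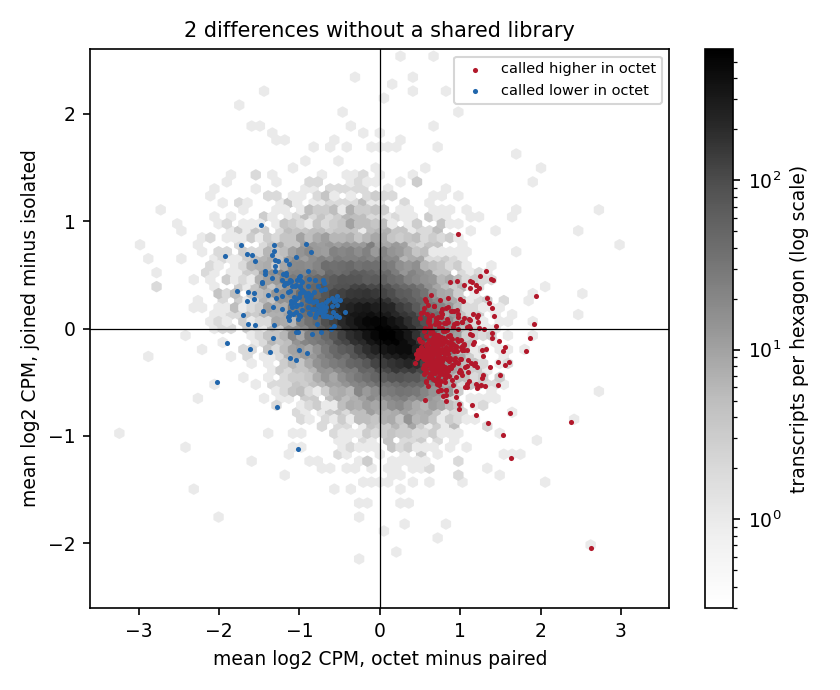
Difference in mean log2 CPM between joined and isolated worms (y axis) against the difference between octet and paired worms (x axis); grey shading counts transcripts per hexagon on a log scale, with 7 of the 40265 outside the axes, and points are called transcripts. The cloud slopes downward, and the points called lower in octet worms lie mostly above 0 on the y axis.

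Octet libraries held reads of fewer transcripts than paired libraries. At least 1 read was found for 62408, 61886, 62208 and 60257 transcripts in octet replicates 1 to 4 and for 65149, 64441, 62942 and 62777 in paired replicates 1 to 4. The groups did not overlap, with means of 61690 ± 979 and 63827 ± 1156 (SD, n = 4 each), and the exact two-sided permutation test gave p = 0.0286, the smallest that 4 against 4 allows, or 0.0857 adjusted over the 3 library summaries tested. When every library was thinned to 7302329 reads the difference was -2072 transcripts, the groups overlapped slightly and the exact permutation p was 0.0571. No transcript with at least 10 reads in every library of 1 group had 0 reads in all libraries of the other. With at least 1 read in every library of 1 group and 0 in all of the other, there were 23 transcripts in octet and 106 in paired worms, with at most 39 and 53 reads over the 4 libraries.

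RNA815_80.1, the most abundant transcript, took 16.4%, 16.9%, 9.17% and 11.0% of the reads in octet replicates 1 to 4 and 19.4%, 14.3%, 15.2% and 20.4% in paired replicates 1 to 4. The groups overlapped, and the difference in means did not pass (exact permutation test, p = 0.171, adjusted 0.2). The 100 most abundant transcripts together took 33.3% ± 3.04 in octet and 35.9% ± 2.34 in paired worms (SD, n = 4 each; exact permutation test, p = 0.2, adjusted 0.2). Among these 100, 8 were called higher and 2 lower in octet worms. Calls made up 3.08% of the most abundant class and 1.44% of all tested transcripts. An unadjusted p under 0.05 (limma-voom) was found in 48 of the 100, against 19.9% of all tested. In the most abundant class it was found for 2765 higher and 1335 lower of 13421 transcripts. An interval within 2-fold was found in 76 of the 100, against 90.8% of the most abundant class and 69.1% of all tested.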

How the data were processed

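Pools of whole worms were extracted in TRIzol and turned into Illumina mRNA libraries, per the labels' protocols, and read as single ends of 100 bp. The authors deposited estimated counts per transcript, made with Bowtie 0.12.7 and RSEM 1.1.19, per the submitters' processing notes, on the assembly MLRNA110815, per the file headers. Filters and normalization are not given in the sources used here. The values have decimal commas, are not whole in 23.8% of cells and were not scaled for depth.

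Values were rounded. Transcripts with at least 1.26 CPM in 4 or more libraries (10 reads in the median library) and at least 15 reads in all were tested, which kept 98.8% to 99.2% of reads. TMM factors (trims of 30% and 5%) scaled the libraries. limma-voom (limma 3.58.1, R 4.3.3, pseudocount 0.5) was fitted to all 16 libraries with 4 group means, and p-values were adjusted over all 40265 transcripts, two-sided, threshold 0.05. Models of raw counts were not used, because the decimal commas kept the values from being read as counts in a check of units. Because of the pseudocount, folds of rarely read transcripts come out too small. The fitting code was tested on simulated counts. Libraries of 1 group differed by more than counting noise in all 12 pairs (chi-square per degree of freedom 4.98 to 26.5). Gene lists were planned but could not be matched to identifiers. The 2 groups, the tests and the alternatives were chosen with earlier results of these data known.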

Additional observations from a re-analysis of the deposited data

Results flagged for a closer look

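Octet replicate 1 held 10112373 reads, far above the 7717459 to 7871829 of the other octet pools. It was the single value far from its group among 20 groups of 4 values examined, where chance gives about 1 in 20. The count of transcripts called between octet and paired worms was 23 without it.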

How the results depend on the processing

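The 580 calls moved by over 1.5 times in 22 of 31 alternatives. There were 983 with the stricter filter, which tests fewer transcripts, 5421 with a quality weight per library, 8 in the fit to 8 libraries alone, 28 at an adjusted p under 0.01 and 2100 at one under 0.10. With 1 library left out the count ran from 23 to 3998. The share called higher was 71.7%, and 53.3% with limma-trend at a pseudocount of 0.5 (259 higher, 227 lower). It was 25% of the 8 calls in the fit to 8 libraries. With the replicate block there were 2388 calls in the fit to 16 libraries, 1216 higher and 1172 lower (50.9% higher), and 1550 in the fit to 8, 564 higher and 986 lower (36.4% higher), so the excess of rises did not hold under the block and turned in the fit to 8. The main fit did not take the numbers to pair the pools. Deviations of same-numbered octet and paired pools correlated at -0.06 to 0.32, and 1 octet and 2 paired pools correlated best with their own number. These correlations leave out joined and isolated pools and cannot decide whether the pools were paired. The file headers number the 16 libraries in turn through octet, paired, joined and isolated within each replicate number. Whether same-numbered pools were handled together is not stated in the sources used here and was not tested.

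The median log2 fold change of all tested transcripts was 0.0128 with median-ratio and -0.0228 with upper-quartile factors, -0.0107 with no filter, 0.0938 with the stricter filter, -0.0085 in the fit to 8 libraries and -0.0097 there with the replicate block. It ran from -0.0105 to 0.0096 with 1 library left out. Transcripts with an interval within 2-fold numbered 12356 of 13719 under the stricter filter. The difference in detected transcripts was -2072 after thinning, and -2488 to -1660 with 1 library left out. RNA815_30220 lost its call in 1 of 28 alternatives, the fit to 8 libraries. RNA815_30887.2, RNA815_358.1 and RNA815_356.1 kept theirs in all 28. These transcripts were picked for small p values in the same pools that the alternatives use. Kept calls were therefore likely and are not independent support. Unless named above, the cause of a change was not tested. Depth limits scarce transcripts: 38.4% of the least abundant class had an interval within 2-fold, against 90.8% of the most abundant.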
